A study of Homo sapiens with 6 samples.

Results

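The genes described here are 10 immediate early regulators of transcription: the zinc finger factors EGR1, EGR2 and EGR3, the leucine zipper proteins FOS, FOSB, JUN, JUNB, JUND and ATF3, and the nuclear protein IER2. They were chosen by gene symbol and not by any measured value. A gene was taken as measured where at least 1 probe set of the array was annotated to it alone, and its main probe set was the one with the highest mean over all 6 arrays. By this rule 9 of the 10 genes were measured, through 19 of the 54675 probe sets, among 19775 measured genes in all. EGR2 had no such probe set in the annotation used and is not analysed here.

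Immediate early genes are transcribed within minutes of a growth factor, stress or cytokine signal, without new protein synthesis, and most of their messages are short-lived. Ternary complexes of SRF with ETS family partners, and CREB bound at cAMP response elements, carry MAP kinase and calcium signals to their promoters, where Mediator joins these factors to RNA polymerase II. FOS and JUN proteins pair through leucine zippers as the AP-1 factor, while EGR proteins bind GC-rich sites, and in myeloid cells EGR1 is known for its part in the monocyte and macrophage programme.

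The cells were MV4;11, an established human line from acute myeloid leukaemia that carries MLL-AF4, in RPMI-1640 medium with serum. One group of 3 arrays held RNA of cells kept for 3 h with the solvent DMSO, and the other group of 3 arrays that of cells kept for 3 h with 25 nM CA, cortistatin A in the series title. This compound blocks the Mediator kinases, CDK8 and its paralog CDK19. No stimulus was added in either group beside the serum that both shared, so far as the labels say. The labels speak of wells plated in triplicate and not of separate cultures, so every p-value measures the spread between these samples alone, which may be technical. In RNA from whole cultures, fewer cells with a transcript and less of it per cell cannot be told apart.

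All values are log2 RMA values, 1 per probe set and array, and the array medians lay between 3.74 and 3.77. Precision is limited by the number of arrays. A probe set is called dim where its mean did not exceed 3.74, the median over all probe set means. Of 14 markers of myeloid leukaemia 11 were measured and 10 were above that median, among them LYZ, which encodes lysozyme (DMSO mean 12.40), and the receptor kinase FLT3 (DMSO mean 9.65). The mean of these 11 markers was 7.79 to 7.86 on the DMSO arrays and 7.88 to 7.97 with cortistatin A, without overlap. One of the 11, CEBPA, which encodes a myeloid transcription factor, rose by 0.42 ± 0.05 (limma adjusted p = 0.0248). Of the 11 markers 8 were higher and 3 lower, FLT3 among the latter at -0.20 (limma adjusted p = 0.196). The mean of 8 T and NK cell markers was 4.12 to 4.20 in both groups, and 5 of the 8 were above the median, NKG7 being the highest with a mean of 7.88. The mean of 8 epithelial and stromal markers was 4.61 to 4.66 in DMSO and 4.68 to 4.73 with the drug, also without overlap, and 0 of these 8 passed. The part of these shifts in the results for the members was not tested. The 3' minus 5' signal was taken for 21 pairs of control probe sets, those of added bacterial RNAs among them. Some transcripts had more than 1 pair. The groups did not overlap for 3 of the pairs, all higher with cortistatin A. One of the 3 was beta-actin, at 1.75 ± 0.06 in DMSO and 1.95 ± 0.11 with the drug (SD, n = 3). The human controls GAPDH (1.08 in DMSO, 1.14 with the drug) and ISGF3A (5.47 and 5.49) overlapped. The others were the added controls DapX and ThrX. A further pair for dap overlapped, at 2.45 ± 0.06 in DMSO and 2.55 ± 0.07 with the drug. The mean over all 21 overlapped, at 0.53 to 0.63 in DMSO and 0.60 to 0.65 with the drug, and does not measure the cells' RNA alone.

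The proximal promoters of 3 members are shown because these members had the lowest, the next lowest and the highest change described below. Each line is the 250 bases before the RefSeq start (build GRCh38.p14), 5' to 3' on the gene's strand. Capitals mark matches to the CArG box, the element that SRF binds, and to TGACG on either strand, the core of the cAMP response element. The windows are EGR1 at chr5:138465229-138465478, plus strand, JUNB at chr19:12791236-12791485, plus strand, and FOS at chr14:75278578-75278827, plus strand.
EGR1: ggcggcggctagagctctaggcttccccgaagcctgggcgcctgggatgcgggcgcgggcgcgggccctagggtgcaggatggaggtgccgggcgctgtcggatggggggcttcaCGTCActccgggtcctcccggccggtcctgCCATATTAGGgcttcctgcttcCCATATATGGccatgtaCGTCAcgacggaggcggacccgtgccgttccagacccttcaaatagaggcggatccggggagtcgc
JUNB: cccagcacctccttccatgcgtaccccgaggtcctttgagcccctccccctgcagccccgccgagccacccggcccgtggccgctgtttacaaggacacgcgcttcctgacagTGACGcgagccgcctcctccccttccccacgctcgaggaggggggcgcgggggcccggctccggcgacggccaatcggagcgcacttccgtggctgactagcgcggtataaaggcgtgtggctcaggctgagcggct
FOS: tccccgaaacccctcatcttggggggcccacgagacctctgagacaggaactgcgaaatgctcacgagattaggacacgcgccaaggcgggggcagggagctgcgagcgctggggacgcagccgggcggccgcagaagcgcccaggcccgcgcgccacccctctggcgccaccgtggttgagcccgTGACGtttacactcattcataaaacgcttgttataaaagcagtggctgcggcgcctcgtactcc
EGR1 held a pair of CArG boxes, at 105 to 96 and 83 to 74 bases before its start, and TGACG on the other strand at 135 to 131 and 66 to 62 bases. JUNB held TGACG from 137 bases before its start and FOS at 64 to 60 bases, and neither window held a CArG box. Sites more than 250 bases before a start were not searched, so this does not show that FOS or JUNB lacks one. The promoter table held 12 windows of 9 members, those of EGR1, EGR2, FOS, FOSB, JUN, JUNB, JUND, IER2 and ATF3. Among these, a CArG box was found in 2 of the 12 windows, for EGR1 and for EGR2, against 1.16% of all 35116 windows. TGACG was found in 8 of the 12 windows, against 21.2% of all windows, and for every gene of the 9 but ATF3. The ATF3 windows, at chr1:212565157-212565406 and chr1:212614768-212615017, may not cover every start of that gene. So this does not show that ATF3 lacks the element. The full element TGACGTCA, which holds TGACG on both strands, was found for JUND (1.65% of all windows). The AP-1 site TGANTCA, searched on both strands, was in 0 of the 12 windows (6.57% of all windows), and GCGNGGGCG, a site of the EGR type, was in that of EGR1 (8.41% of all windows). TATAAA was found for FOS, FOSB, JUNB and ATF3 (10.7% of all windows). It lay within 33 to 25 bases before the start for FOS, FOSB and JUNB. For ATF3 it lay at 230 to 225 bases, in the window at chr1:212614768-212615017. These matches describe letters in a short window and were not tested for a relation to the arrays.

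The comparison asked which of these genes had a different transcript level after 3 h with the Mediator kinases inhibited. EGR1 was 1.46-fold lower with cortistatin A, and the other 8 members differed by 1.01-fold to 1.13-fold. With limma over all genes, 0 of the 9 members passed an adjusted p of 0.05, where 0.582% of all genes did. At an unadjusted limma p under 0.05 the count was 1 of 9, EGR1, against 12.6% of all genes, 5.83% lower and 6.81% higher. The means were lower with the drug for 7 of 9 members and higher for FOS and JUND, with a median change of -0.07, while 9411 of the 19775 genes were lower and their median change was 0.01. The groups did not overlap for 4 members, EGR1, JUNB and IER2 below the DMSO arrays and JUND above them. Among all genes the groups did not overlap for 19.4%, with 9.22% lower and 10.2% higher. Of the 115 genes that passed, 88 were higher and 27 lower. With the arrays centred on housekeeping genes 121 genes passed, 44 higher and 77 lower. Under that centring the housekeeping genes had a median change of -0.10, against -0.0024 before it, and the median of all genes moved by -0.098. JUND turned to -0.06 and 8 of 9 members were then lower.

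**Figure D1:**
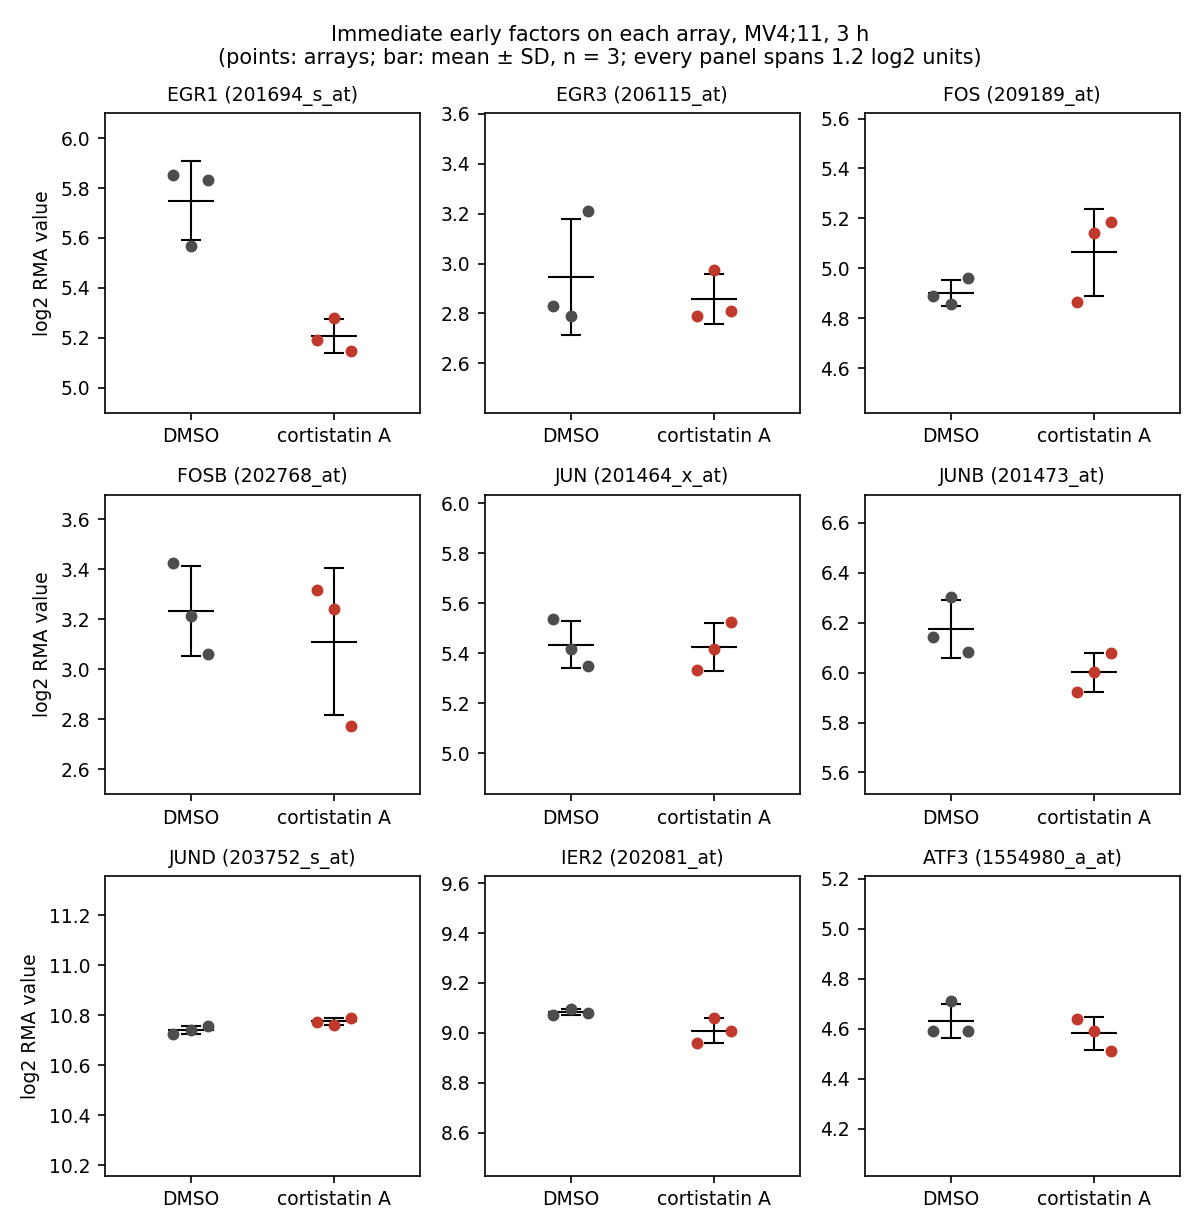
Log2 RMA value of the main probe set of each measured member (y axis) on the 3 DMSO arrays (grey) and the 3 cortistatin A arrays (red), each panel with its own position but the same span. Horizontal bars are means and whiskers SDs (n = 3). EGR1 is the panel with a clear space between the groups, from 5.28 to 5.57, while the FOS, FOSB, JUN, EGR3 and ATF3 panels overlap.

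EGR1 encodes a zinc finger activator that serum and differentiation signals induce. Its main probe set read 5.85, 5.57 and 5.83 on the DMSO arrays of replicates 1, 2 and 3, and 5.19, 5.28 and 5.15 on the cortistatin A arrays. All 3 drug values lay below all 3 solvent values, and the highest of the former was 0.29 below the lowest of the latter. The difference was -0.54 ± 0.09 on the log2 scale (SE), with a 95% interval, not adjusted for the number of genes, of -0.76 to -0.33. It did not pass over all genes (limma adjusted p = 0.0720). The two-sided exact permutation test gave p = 0.1, the smallest that 3 against 3 arrays allow. By its change EGR1 stood 15th from the lowest of 19775 genes, and by its limma p it stood 157th. EGR1 was called when dim genes were left out of the fit (limma adjusted p = 0.0254) and when limma used trended, robust variances (adjusted p = 0.00275), at the same change. Averaging the 3 EGR1 probe sets gave -0.36 (limma adjusted p = 0.151). With the 3' to 5' signal of the control transcripts as a covariate it was -0.49 ± 0.10 (limma adjusted p = 0.240). Over its 14 alternatives the adjusted p ran from 0.00275 to 0.279, and the change stayed between -0.64 and -0.36.

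EGR3, a close relative of EGR1 that antigen receptors and growth factors induce, was measured by 1 dim probe set. It read 2.83, 2.79 and 3.21 in DMSO and 2.79, 2.97 and 2.81 with cortistatin A. The groups overlapped, and DMSO replicate 3 was the high value. The difference was -0.09 ± 0.12 (limma adjusted p = 0.821), with a 95% interval of -0.38 to 0.20, and without DMSO replicate 3 it was 0.05. On a dim probe set this interval does not limit how far the transcript itself may have changed.

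FOS and FOSB supply the FOS side of AP-1, and FOS cannot pair with itself but needs a JUN partner. FOS read 4.89, 4.86 and 4.96 in DMSO and 4.87, 5.14 and 5.19 with cortistatin A. Replicates 2 and 3 with the drug lay above all DMSO arrays, while replicate 1 lay among them. The difference was 0.16 ± 0.09 (limma adjusted p = 0.535), with a 95% interval of -0.06 to 0.38. Without cortistatin A replicate 1 it was 0.26 (limma adjusted p = 0.306), and with housekeeping centring 0.06. FOSB, on 1 dim probe set, read 3.42, 3.21 and 3.06 in DMSO and 3.32, 3.24 and 2.77 with the drug. The FOSB groups overlapped, with cortistatin A replicate 3 the low value. The difference was -0.12 ± 0.16 (limma adjusted p = 0.812), with a 95% interval of -0.51 to 0.26, and without cortistatin A replicate 3 it was 0.05. The limit given for the dim probe set of EGR3 holds for FOSB too.

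The 3 JUN proteins pair with FOS proteins or with each other. JUN, the strongest activator of the group, read 5.54, 5.42 and 5.35 in DMSO and 5.33, 5.41 and 5.53 with cortistatin A. The groups spanned nearly the same range. Their difference was -0.01 ± 0.07 (limma adjusted p = 0.973), with a 95% interval of -0.19 to 0.17, or 0.878-fold to 1.12-fold. JUNB, a weaker activator that can oppose JUN, read 6.14, 6.30 and 6.08 in DMSO and 5.92, 6.003 and 6.08 with the drug. The JUNB groups were separate only by 6.081 in DMSO replicate 3 against 6.080 in cortistatin A replicate 3. The difference was -0.17 ± 0.08 (limma adjusted p = 0.417), with a 95% interval of -0.36 to 0.01. It was -0.11 without DMSO replicate 2 and -0.27 with housekeeping centring (limma adjusted p = 0.596 and 0.110). JUND is expressed in most resting cells and responds least to serum among the JUN genes. It read 10.73, 10.74 and 10.76 in DMSO and 10.77, 10.76 and 10.79 with cortistatin A. The JUND arrays differed little within each group, with SDs of 0.02 and 0.01, and did not overlap. The difference was 0.04 ± 0.05 (limma adjusted p = 0.806), with a 95% interval of -0.07 to 0.14, and it turned to -0.06 with housekeeping centring.

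IER2, a short nuclear protein with a role in transcription that serum induces, read 9.07, 9.10 and 9.08 in DMSO and 8.96, 9.06 and 9.01 with cortistatin A. All 3 drug values lay below the solvent values, by 0.01 at the closest pair. The difference was -0.07 ± 0.05 (limma adjusted p = 0.601), with a 95% interval of -0.19 to 0.04, and -0.17 with housekeeping centring (limma adjusted p = 0.157). ATF3, a stress-induced member of the ATF and CREB family that often represses, read 4.59, 4.71 and 4.59 in DMSO and 4.64, 4.59 and 4.51 with cortistatin A. The ATF3 groups overlapped. The difference was -0.05 ± 0.06 (limma adjusted p = 0.799), with a 95% interval of -0.20 to 0.10.

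**Figure D2:**
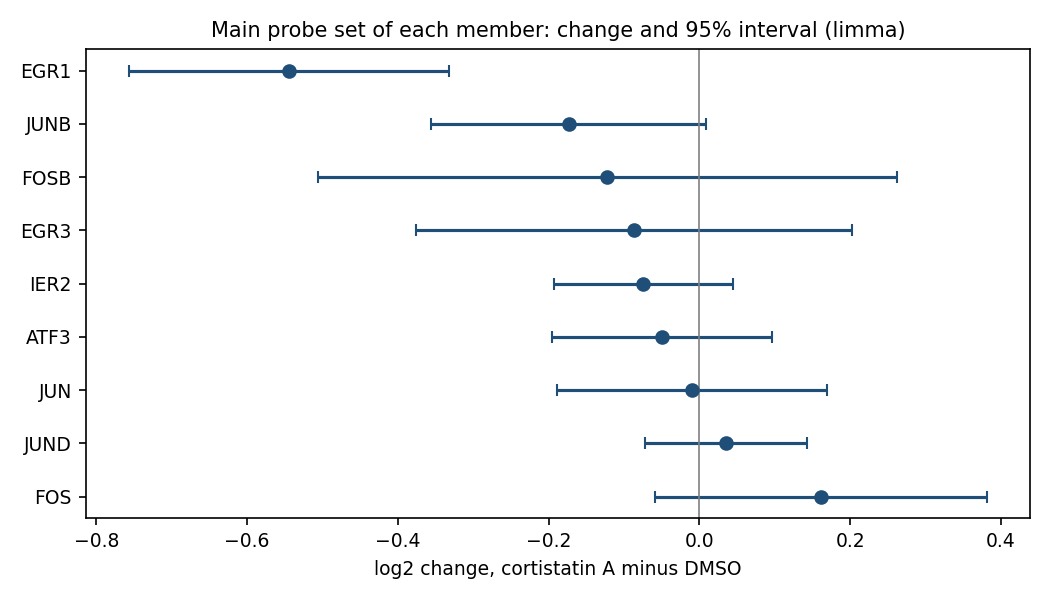
Log2 change of the main probe set of each member (x axis, cortistatin A minus DMSO), with points for the limma estimate and bars for its 95% interval, not adjusted for the number of genes. The interval of EGR1, -0.76 to -0.33, is the only one of the 9 that leaves out 0.

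Among the 6 other members whose main probe sets were not dim, the lower end of the 95% interval lay between -0.36 for JUNB and -0.06 for FOS. The intervals of JUN, JUND, IER2 and ATF3 lay within -0.20 and 0.17. Not being dim does not show that a transcript was present. Of 8 T and NK cell markers 5 were not dim, and of 5 B cell markers 4, with highest means of 7.88 and 5.12. IER2 (9.05) and JUND (10.76) were above these means. ATF3 (4.61), FOS (4.98), JUN (5.43), EGR1 (5.48) and JUNB (6.09) were below 7.88. How much of these lower signals was background was not tested, so their intervals may not limit how far the transcripts changed.

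Of the 9 members 4 had further probe sets, and these did not all read alike. EGR1 had 3, all of the _s_at type, which several transcripts can share. The dim probe set 227404_s_at read 2.85, 2.38 and 2.45 in DMSO and 2.06, 1.92 and 2.22 with cortistatin A, again with no overlap and with a difference of -0.49. The third, 201693_s_at, also dim, read 3.25, 3.25 and 3.38 in DMSO and 3.33, 3.12 and 3.33 with the drug. These values overlapped, with a difference of -0.03 and a 95% interval of -0.23 to 0.16. So both 201694_s_at and 227404_s_at were lower on all cortistatin A arrays, and 201693_s_at was not. Which part of the transcript each probe set covers was not used here.

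JUN had 4 probe sets, with differences of -0.01 for the main one, 0.11 for 201465_s_at, -0.28 for the dim 201466_s_at and -0.05 for the dim 213281_at. The groups overlapped on each of the 4. For 201466_s_at the 95% interval was -0.56 to -0.01 (limma adjusted p = 0.467 over all probe sets). JUND had 4 as well, and those beside the main one were at -0.16 (203751_x_at), -0.12 (214326_x_at) and 0.35 (the dim 229117_s_at). The last of these read 2.95 on DMSO replicate 1, 3.66 and 3.77 on the other DMSO arrays and 3.79 to 3.84 with cortistatin A, so its difference rests on 1 low array. ATF3 had 3 probe sets, at -0.05, -0.03 and 0.04, all with overlapping groups. With the means of all probe sets of a gene 0 of the 9 members passed. Without the _x_at and _s_at types EGR1 and JUND were not measured, and 0 of the 7 members left passed or had an unadjusted p under 0.05.

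**Figure D3:**
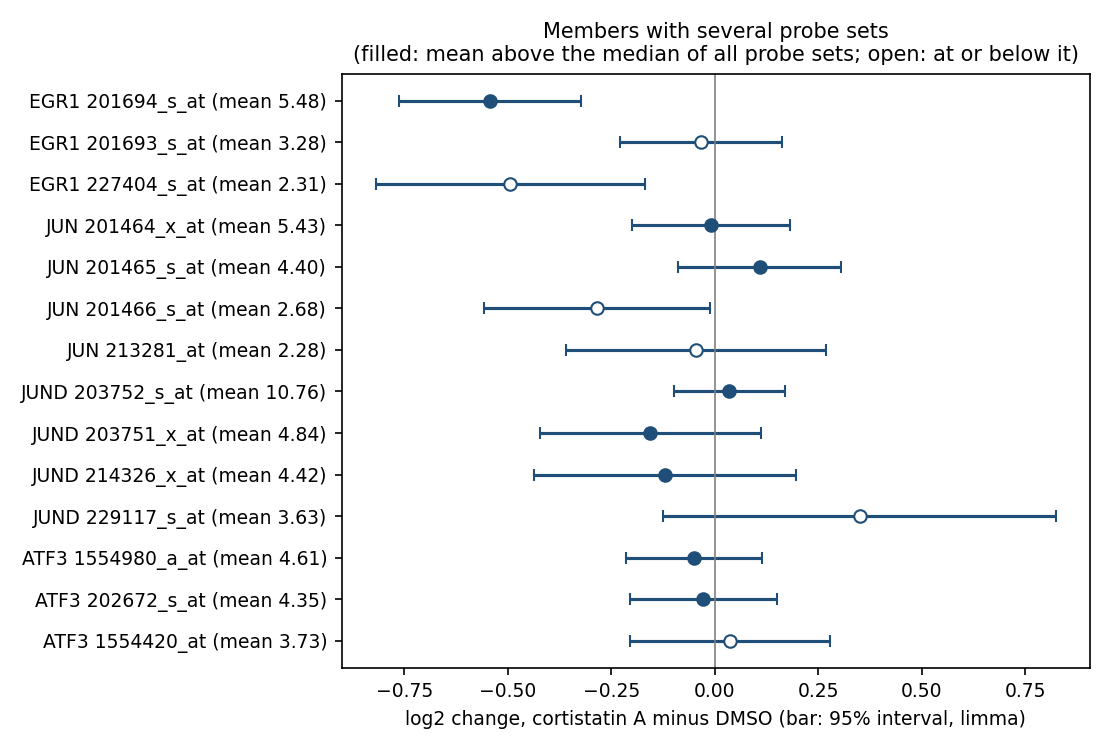
Log2 change of every probe set (x axis, cortistatin A minus DMSO, with 95% intervals from limma over all probe sets) of the 4 members with more than 1, with the mean over 6 arrays in each label. Filled points are above the median of all probe sets and open points at or below it. EGR1 has 2 probe sets near -0.5 and 1 near 0. The intervals of the JUND and ATF3 probe sets all include 0, while that of the dim JUN probe set 201466_s_at, -0.56 to -0.01, does not.

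The rest of the AP-1 family was read beside the members. Of 21 other family and partner genes 18 were measured, and 1 passed over all genes, FOSL2, a further FOS relative. FOSL2 read 7.30, 7.27 and 7.29 in DMSO and 7.77, 7.73 and 7.73 with cortistatin A, and rose by 0.45 ± 0.05 (limma adjusted p = 0.0208). Averaged over its 5 probe sets FOSL2 was at 0.28 and did not pass (limma adjusted p = 0.0866). The list median was -0.0019, and 8 genes were higher and 10 lower. Of the FOS relatives FOSL2 was called higher, and FOS (0.16), FOSL1 (0.13) and FOSB (-0.12) were not called. The 95% interval of FOSL2, 0.34 to 0.56, overlapped that of FOS, and differences between these genes were not tested.

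Of 50 other immediate early genes 47 were measured, and 4 rose and 0 fell over all genes, with a list median of 0.05. TRIB1, a pseudokinase that targets C/EBP factors, rose by 0.57 (limma adjusted p = 0.0248). The ERK phosphatase DUSP6 rose by 0.52 (limma adjusted p = 0.0248), MYC by 0.39 (limma adjusted p = 0.0332) and the nuclear phosphatase DUSP2 by 0.36 (limma adjusted p = 0.0430). Averaged over its probe sets TRIB1 was at 0.26 and was not called (limma adjusted p = 0.233). Its further probe sets were dim, with means of 2.06 and 2.11. With housekeeping centring MYC and DUSP2 were not called (limma adjusted p = 0.0758 and 0.0766). With no adjustment, 10 of the 47 genes were higher and 7 lower at a limma p under 0.05, where 6.81% and 5.83% of all genes were. At the lower end ZFP36, which speeds the decay of cytokine and immediate early messages, was at -0.40 (limma adjusted p = 0.0510), next to EGR1 at -0.54.

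The factors and kinases upstream were not called. Of 19 factors and coactivators, all measured, 0 passed (median -0.03). Besides SRF, TCF and CREB factors this list holds MEF2 and STAT genes. SRF was at 0.04, CREB1 at -0.01 and the TCF genes ELK1, ELK3 and ELK4 at 0.03, 0.17 and 0.02. MEF2C (0.47, limma adjusted p = 0.0720), MEF2A (-0.31), the acetyltransferase EP300 (-0.23) and STAT3 (-0.20) had the smallest p. Of 24 MAP kinase pathway genes 16 were measured and 0 passed (median -0.02). RPS6KA5, a histone and CREB kinase, was at -0.23, MAPK9 at -0.18, MAP2K1 at -0.13 and MAPK8 at -0.12. Of the EGR corepressors NAB1 was at -0.11 and NAB2, itself described as an EGR target, at -0.05, and neither passed. At an unadjusted limma p under 0.05 the 19 factors held 2 higher and 6 lower, the 16 kinase pathway genes 0 higher and 3 lower, and the corepressors 0, beside 6.81% higher and 5.83% lower among all genes. The mean of the 16 kinase pathway genes was 7.13 to 7.15 in DMSO and 7.09 to 7.10 with cortistatin A, without overlap and lower like EGR1, and its part in the EGR1 difference was not tested.

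Genes described as AP-1 or EGR targets gave no call either, with 23 of 24 measured and a median of 0.04. CDKN1A, the p21 inhibitor of cyclin-dependent kinases, was at -0.34 (limma adjusted p = 0.0679), and TNF (0.30), the tissue factor gene F3 (0.31) and the urokinase receptor PLAUR (0.13) were higher without passing. Of the 7 genes of the Mediator kinase module 0 passed, and CDK19 was at -0.22, MED13 at -0.15, MED13L at 0.10 and MED12L, on a dim probe set, at 0.13. Without DMSO replicate 3 MED12L was at 0.0085. Heat shock genes, which rise with immediate early genes when cells are stressed in handling, were read as a check. Of 13 such genes 10 were measured and 0 passed, with 1 higher and 9 lower. DNAJA1 was at -0.18, DNAJB4 at -0.36, HSPE1 at 0.10 and HSPH1 at -0.09. The mean of the 10 genes was 9.95 on each DMSO array and 9.83 to 9.93 with cortistatin A, so it moved the same way as EGR1, and its part in the EGR1 difference was not tested. At an unadjusted limma p under 0.05 the 23 targets held 4 higher and 1 lower, the 7 Mediator genes 0 higher and 1 lower, and the 10 heat shock genes 0 higher and 2 lower, beside the same 6.81% and 5.83% of all genes.

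**Figure D4:**
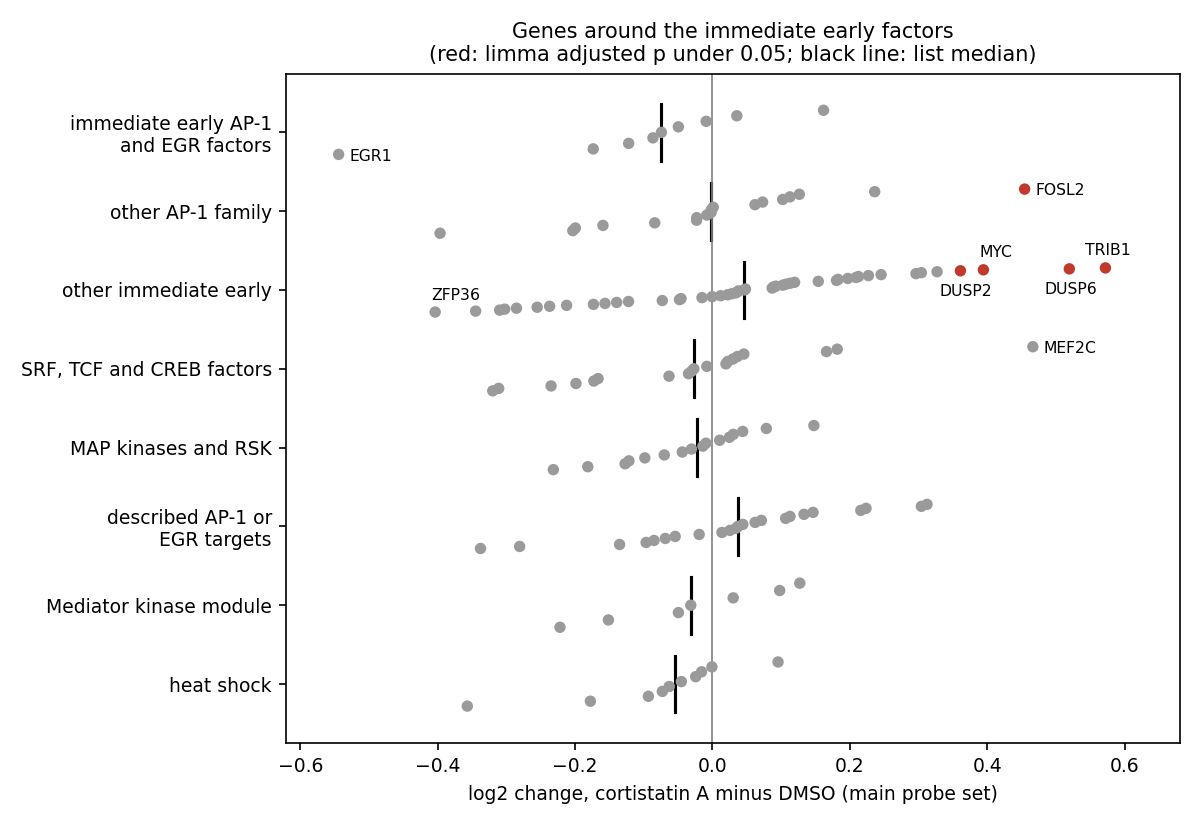
Log2 change of the main probe set of each measured gene (x axis, cortistatin A minus DMSO) in 8 lists, with 1 point per gene and a black line at each list's median. The list labelled SRF, TCF and CREB factors also holds MEF2 and STAT genes. Red points passed limma over all genes: FOSL2, TRIB1, DUSP6, MYC and DUSP2, all higher. EGR1 is the lowest point of its list and of all lists drawn.

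The 5 genes whose profile over the 6 arrays was nearest to that of EGR1 were sought among 12642 others that were not dim, by the root mean square difference of values centred on each gene's mean. They were SOX6 (0.064), NFAT5 (0.070), HOXC6 (0.080), LRCH3 (0.088) and PPP1R10 (0.091), with changes of -0.43, -0.50, -0.55, -0.41 and -0.56. NFAT5, HOXC6 and PPP1R10 passed over all genes (limma adjusted p = 0.0332, 0.0198 and 0.0188), and SOX6 and LRCH3 did not (limma adjusted p = 0.0748 and 0.185). All 3 calls were lost when any 1 array was left out, with limma adjusted p of at least 0.0845. Averaged over their probe sets, dim ones included, NFAT5 was at -0.36 and not called (limma adjusted p = 0.157), and LRCH3 was at -0.20. EGR1 and its nearest neighbour SOX6 shared a lower DMSO replicate 2, at 5.60 for SOX6 beside 5.81 and 5.78. The likeness is a description over 6 arrays in 2 groups, and SOX6 was at 0.02 when its probe sets, most of them dim, were averaged.

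The EGR1 change was followed under each setting. It was lower with cortistatin A in every one of the 14 alternatives in which EGR1 was measured, and 2 of these called it. Leaving out 1 array at a time gave -0.64 to -0.49, with an unadjusted limma p from 9.4e-05 to 0.0033. As the groups do not overlap, leaving out an array could not turn the sign.

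**Figure D5:**
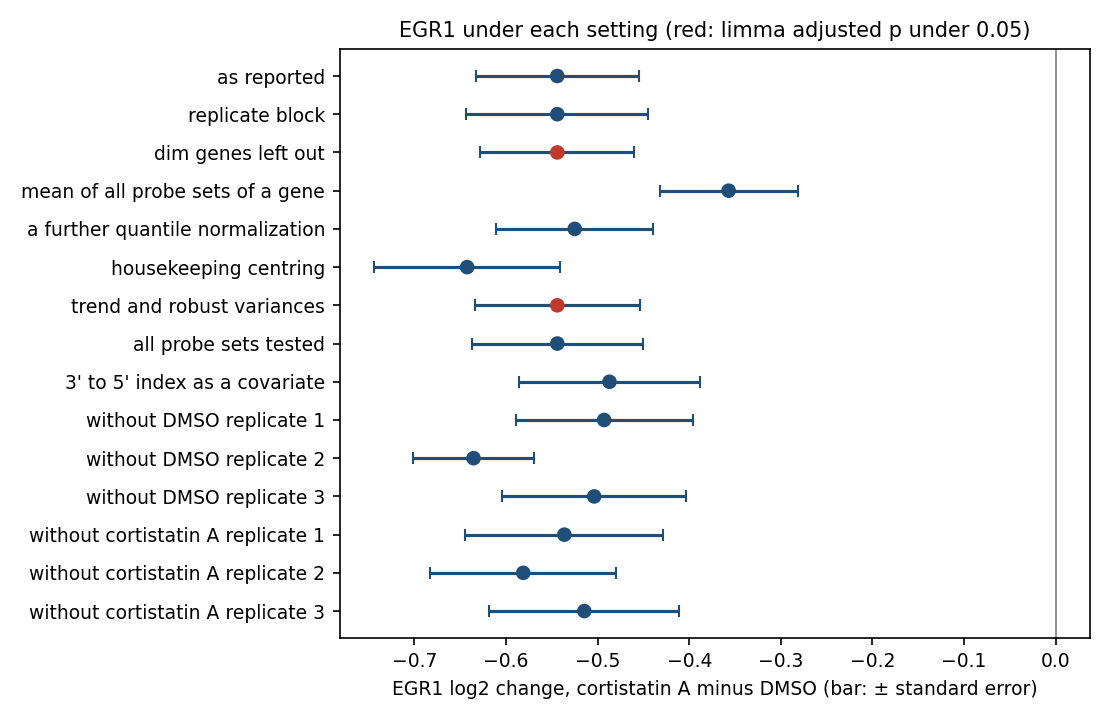
Log2 change of EGR1 (x axis, cortistatin A minus DMSO) as reported and under 14 alternatives (rows), with bars of 1 limma standard error. Red points have a limma adjusted p under 0.05, which holds with dim genes left out and with trend and robust variances.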

How the data were processed

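RNA of 6 wells was hybridized to single-colour Affymetrix Human U133 Plus 2.0 arrays. Each probe set has 1 deposited value on each array, made with RMA and affy per the submitters' processing notes. The scale is not stated, and the deposited values were taken as log2 because they lay between 0.81 and 13.84. RMA usually makes array distributions alike, which would remove a shift of all transcripts. Scanner files and detection calls were not used here. Of 54675 probe sets 41091 named 1 gene in the platform annotation, 1801 several, 11721 none and 62 were controls. Symbols were updated through RefSeq identifiers for 41037, and 54 kept the platform's.

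The main probe sets of 19775 genes were compared in R 4.3.3 by limma 3.58.1 (eBayes after lmFit, group as the sole term, two-sided, Benjamini-Hochberg over all genes, threshold 0.05, no filter), with 4 residual and 2.68 prior degrees of freedom. The fit was tested on simulated data. The members, lists and alternatives were chosen with earlier results of these data known. Besides the members, the called genes of each list other than markers and housekeeping genes are named, or else up to 4 with the smallest p, and the 5 genes nearest to EGR1. The markers named, ZFP36 and the genes under other observations that this rule does not name were chosen after their values were seen. The alternatives were a replicate block, dim genes left out, the mean of probe sets, no _x_at or _s_at types and quantile normalization. Further ones were centring on the median of 16 measured housekeeping genes, trend and robust variances and all probe sets tested. The last were the mean 3' minus 5' signal of 21 pairs of control probe sets as a covariate, and each array left out. Replicate numbers did not pair the arrays (same-numbered deviations correlated at -0.055 to 0.016). At most 678 values were identical between 2 arrays. RefSeq promoters (GRCh38.p14) were searched over the 250 bases before the start.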

Additional observations from a re-analysis of the deposited data

How the results depend on the processing

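The count of members called was 0 as reported and 0 under each alternative except 1, EGR1, with dim genes left out and 1, EGR1, with trend and robust variances. The 115 genes called became 321 without dim genes, 76 with probe sets averaged, 54 without _x_at and _s_at types and 762 with trend and robust variances. With all probe sets tested 28 probe sets passed, among them the main probe sets of 13 genes higher and 2 lower. They became 0 with the 3' to 5' covariate (1997 at an unadjusted limma p under 0.05), and 0 to 4 when any 1 of the 6 arrays was left out, with 1952 to 2342 at that unadjusted p. With the replicate block limma called 0 genes (2243 at an unadjusted p under 0.05), and EGR1 had an adjusted p of 0.279. Of 77 member values under other settings 73 kept sign and side of the threshold. JUN turned to 0.066 with the 3' to 5' covariate and JUND to -0.063 with housekeeping centring. When arrays were left out in turn EGR3 ran from -0.16 to 0.047, FOSB from -0.22 to 0.047, JUN from -0.060 to 0.042 and NAB2 from -0.13 to 0.0073. With the mean of probe sets SOX6 turned to 0.017, STAT3 to 0.0077 and MED13L to -0.034. With housekeeping centring MED13L turned to -0.00066 and HSPE1 to -0.0030. Housekeeping centring, which followed TFRC and PGK1, moved the change of every gene by the same -0.098. The cause of the other turns was not tested. FOSL2, TRIB1, DUSP6, MYC, DUSP2, NFAT5, HOXC6 and PPP1R10 each lost their call when any 1 array was left out, at unadjusted limma p of at most 0.00135, and under the replicate block and the covariate. A signal near the floor limits EGR3 and FOSB, and the part of background in the signals of ATF3, FOS, JUN, EGR1 and JUNB was not tested.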

Other observations

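Within the other immediate early genes the MAP kinase phosphatases did not read alike. DUSP6 and DUSP2 passed as higher, DUSP5 was at 0.23 (limma adjusted p = 0.184), and DUSP1, the stress-induced phosphatase, was at -0.34 (limma adjusted p = 0.198). The orphan receptors NR4A1, NR4A2 and NR4A3, which calcium and cAMP signals induce, were at 0.09, -0.17 and 0.09, and EGR4, a further EGR relative, was at -0.05, all with overlapping groups. Among the feedback inhibitors of NF-kB, NFKBIA was at -0.29 and TNFAIP3 at 0.21 (limma adjusted p = 0.146 and 0.223), with no overlap between the groups for either. The differences between these genes were not tested.

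Among the other leucine zipper genes MAFF, a small MAF protein without an activation domain, was at -0.40 ± 0.11 (limma adjusted p = 0.231), and ATF5 was at -0.20 (limma adjusted p = 0.235). CREM, a relative of CREB with a cAMP-inducible repressor form, was at 0.24 (limma adjusted p = 0.382). MAFF, ATF5 and CREM each had separate groups, as had 19.4% of all genes.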
